A study of Mus musculus with 27 samples.

Results

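The UDP-glucuronosyltransferases (Ugt genes) and the cytosolic sulfotransferases (Sult genes) of mouse liver are described here across HDAC3 and SCAP knockouts. Members were all genes of the deposited RNA sequencing table whose symbol begins with Ugt1a, Ugt2a, Ugt2b, Ugt3a or with Sult and a digit, 38 of 22869 genes. Of these, 35 had at least 1 read count (20 Ugt and 15 Sult genes), and 24 of them (18 Ugt and 6 Sult genes) passed the filter on low counts, which left 12009 genes in all for testing. Livers of C57Bl/6 mice carrying floxed alleles were taken 10 days after the mice, fed freely, had received an AAV8 vector, an adeno-associated virus that infects hepatocytes. HDAC3 LKO (4 libraries) are HDAC3 floxed mice given AAV8:Cre, SCAP LKO (4 libraries) are SCAP floxed mice given AAV8:Cre, and Double LKO (3 libraries, numbered 2, 3 and 4 in the table) are HDAC3/SCAP floxed mice given AAV8:Cre. The 6 GFP controls received AAV8:GFP, with 2 libraries from each of the 3 floxed lines. Every group therefore carries floxed alleles and an AAV8 vector, and no library comes from mice given Cre without a floxed allele, so that an effect of Cre itself cannot be told apart from loss of the gene in a comparison with GFP. The labels number the samples within groups without saying that each is a separate mouse, and the p-values therefore reflect only how much these samples vary.

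Ugt enzymes sit in the endoplasmic reticulum and attach glucuronic acid from UDP-glucuronate to bilirubin, steroids, bile acids and drugs, while Sult enzymes of the cytosol attach sulfate from the donor PAPS to phenols, steroids and catecholamines. Both reactions make their substrates more soluble for export into bile or blood, and hepatocytes express many of the enzymes. HDAC3 is a histone deacetylase that works in the NCoR and SMRT corepressor complexes, and SCAP is the escort protein without which the SREBP transcription factors are not activated. The Ugt1a locus is built in an unusual way: each Ugt1a transcript starts from its own promoter and its own first exon, and all of them splice to the same set of later exons, so that reads from the later exons cannot be assigned to 1 gene.

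The libraries held 5158695 to 8672408 counts over genes in HDAC3 LKO, 3546597 to 7788828 in SCAP LKO, 3736618 to 20622671 in Double LKO and 4747602 to 19316642 in GFP. Hdac3 was at 7.46 to 10.6 CPM (read counts scaled to a common library size, with TMM factors) in HDAC3 LKO and 9.198 to 12.4 in Double LKO, against 34.3 to 40.7 in GFP, and Scap at 43.9 to 59.03 in SCAP LKO, with 45.5 to 50.8 in Double LKO, against 91.2 to 138.5 in GFP, which goes with the labels. Double LKO library 2 stood apart: the summed level of 6 hepatocyte markers (Alb, Apoa1, Ttr, Serpina1c, Cps1 and Cyp2e1) was 69219 CPM in it and 102387 to 136469 CPM in the others. Most of that sum was Alb, which ranged from 52898 to 111189 CPM over all libraries. Part of the Double LKO results are therefore also given without it. Of the members called in Double LKO against GFP, only Sult1d1 lost its call without this library, while values of others changed. The labels do not give the sex of the mice. The Y-linked gene Ddx3y was at 92.0 to 143.7 CPM and Xist at no more than 0.484 CPM in any library. In whole liver RNA, fewer cells of a type and less RNA per cell cannot be told apart.

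In HDAC3 LKO livers, 14 of the 24 tested members rose and none fell. They were all 8 Ugt1a genes, 3 Ugt2b genes (Ugt2b34, Ugt2b37 and Ugt2b38), Ugt3a1, and the sulfotransferases Sult1a1 and Sult5a1 (quasi-likelihood test of edgeR, p adjusted by Benjamini-Hochberg over 12009 genes and under 0.05). Over all tested genes, 7.88% were called higher and 6% lower, 13.9% in all. The 8 Ugt1a genes share reads and are not 8 separate results: with the locus counted once, 7 members rose. The median log2 fold change was 0.64 over the 24 members and -0.02 over all tested genes, and it was 0.06 over the 16 members outside Ugt1a. In SCAP LKO livers 1 member rose, Ugt2b34, and none fell, where 0.258% of all genes were called higher and 0.933% lower, 1.19% in all. In Double LKO livers 12 members rose and 3 fell, against 7.56% of all genes higher and 6.34% lower, 13.9% in all. The 12 were the HDAC3 LKO set without Ugt2b38 and Sult5a1, and the 3 that fell were Ugt2b1, Sult1c2 and Sult1d1. HDAC3 LKO and Double LKO were set against the same 6 GFP libraries, so their lists are not independent. No comparison with GFP called 7 of the 24 members. Without Double LKO library 2, 13 members rose and 2 fell in Double LKO. With only GFP libraries of the same floxed line, which leaves 2 controls, 10 were called in HDAC3 LKO, none in SCAP LKO, with 10 in Double LKO. In HDAC3 LKO the calls of Ugt2b34, Ugt2b38, Ugt3a1 and Sult5a1 were lost, which left the 8 Ugt1a genes, Ugt2b37 and Sult1a1. In Double LKO those of Ugt1a1, Ugt1a6a, Ugt1a6b, Ugt2b37, Ugt3a1, Sult1c2 and Sult1d1 were lost. The 10 of Double LKO therefore include members not called with all 6 controls, and its Ugt1a genes again share reads.

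**Figure D1:**
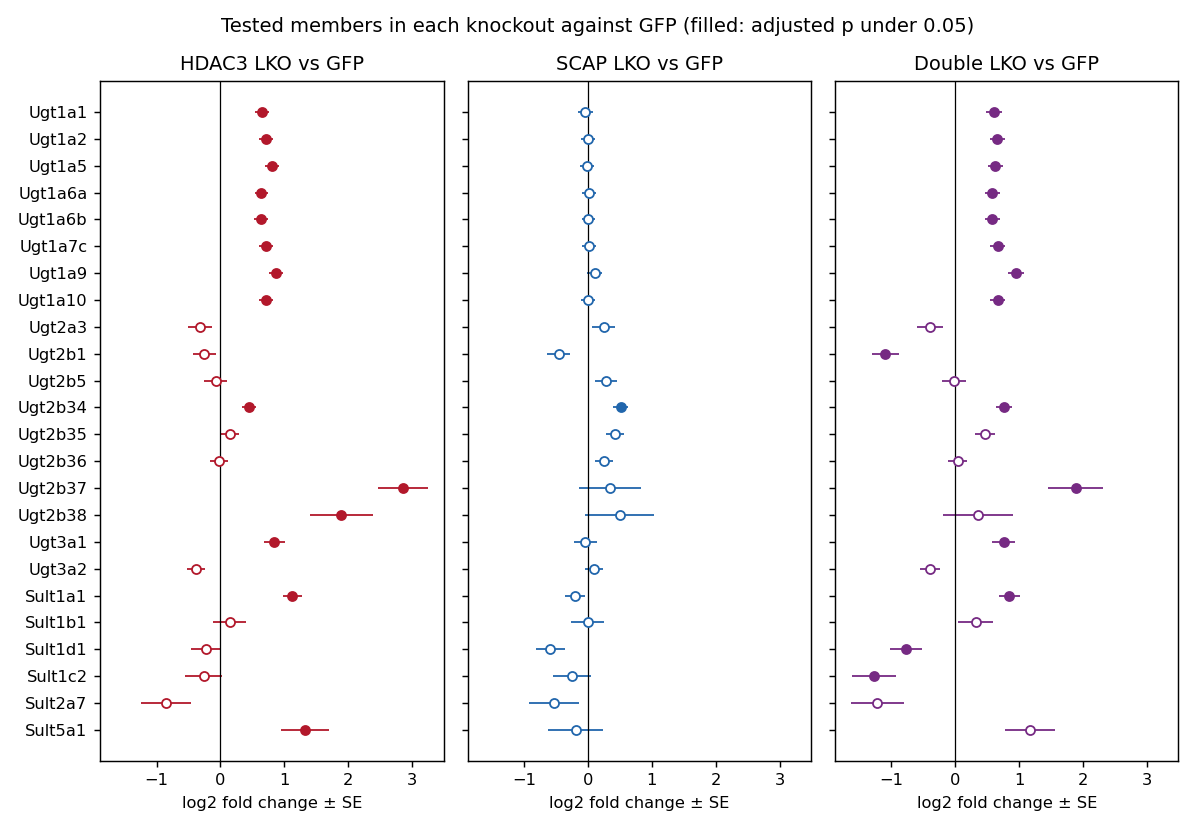
Log2 fold change (± SE) of the 24 tested members in HDAC3 LKO (4 libraries), SCAP LKO (4) and Double LKO (3), each against 6 GFP libraries; filled points passed an adjusted p of 0.05 and open points did not. The 8 Ugt1a genes lie to the right of 0 in HDAC3 LKO (0.63 to 0.86) and in Double LKO (0.58 to 0.95) and near 0 in SCAP LKO (-0.04 to 0.11).

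Because the later exons are common, the 8 Ugt1a rows of the table hold nearly the same reads. Ugt1a10 had the lowest count of the 8 in 15 libraries and Ugt1a2 in the other 2, and the Ugt1a10 count was 99.5% or more of the Ugt1a2 count and 99.2% or more of the Ugt1a7c count in every library. It made up 69.5 to 75.2% of the Ugt1a1 row, 75.9 to 95.6% of the Ugt1a9 row and 90.3 to 99.9% of the Ugt1a5 row. As whole rows, Ugt1a1, the bilirubin-conjugating enzyme, had 1906, 1731, 1896 and 1966 CPM in HDAC3 LKO, 1246, 1173, 1239 and 1015 in SCAP LKO, with 1403, 2127 and 1945 in Double LKO, against 1089 to 1278 (median 1189) in GFP. Ugt1a9, a phenol-conjugating enzyme, had 1668, 1479, 1606 and 1746 CPM in HDAC3 LKO, 1004, 987, 983 and 866 in SCAP LKO, with 1281, 2051 and 1852 in Double LKO, against 834 to 963 (median 881) in GFP. Every HDAC3 LKO and Double LKO library lay above every GFP library for both genes, and the SCAP LKO libraries overlapped the GFP libraries. The Ugt1a1 row rose by 0.65 log2 units in HDAC3 LKO (edgeR adjusted p = 0.000547, SE 0.11) and by 0.61 in Double LKO (adjusted p = 0.00164, SE 0.12), and the Ugt1a9 row by 0.86 in HDAC3 LKO (adjusted p = 4.19e-05, SE 0.11) and 0.95 in Double LKO (adjusted p = 2.02e-05, SE 0.12). The other 6 rows lay between 1257 and 1638 CPM in HDAC3 LKO and between 1019 and 1588 in Double LKO, against 770 to 960 in GFP.

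To look past the common exons, the lowest Ugt1a row of each library was taken as the shared reads and each row was replaced by its excess over it, a step chosen after seeing the data. The excess is a difference between 2 rows: it is used as an estimate of the reads of a gene's own first exon, any such reads of the lowest row are subtracted with it, and the table does not show where in a transcript the reads lie. Shared reads rose by 0.71 log2 units in HDAC3 LKO (edgeR adjusted p = 0.000192, SE 0.11) and by 0.66 in Double LKO (adjusted p = 0.000674, SE 0.12), and were at 0.01 in SCAP LKO (adjusted p = 0.995). The excess of Ugt1a6a and Ugt1a6b moved against the shared reads in HDAC3 LKO and Double LKO, and that of Ugt1a5 in Double LKO, while the excess of Ugt1a1, Ugt1a7c and Ugt1a9 rose with them. For Ugt1a2 it was at most 27 counts and for Ugt1a10 at most 11 in any library, so nothing is read from these 2. That sets aside a lower call of the Ugt1a2 excess in Double LKO (-3.94 against GFP, edgeR adjusted p = 0.00477, and -4.35 against SCAP LKO, adjusted p = 0.00455). The Ugt1a7c excess was also low, at 4 to 107 counts a library, and its calls are given below. With the Ugt1a10 row as the shared reads in every library, all calls given below for the 6 genes other than Ugt1a2 and Ugt1a10 were kept in direction and threshold. That choice changes the counts only in Double LKO libraries 3 and 4, by 11 and 8 reads, so it is no separate check of the values.

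The Ugt1a5 excess rose in HDAC3 LKO and fell in SCAP LKO and Double LKO. It was 130.5, 104.5, 111 and 161 CPM in HDAC3 LKO, 6.83, 6.02, 5.04 and 6.15 in SCAP LKO, with 2.32, 2.61 and 4.27 in Double LKO, against 14.7 to 30.2 (median 23.1) in GFP. All 4 HDAC3 LKO libraries lay above, and all 7 libraries without SCAP below, every GFP library. The excess rose by 2.52 log2 units in HDAC3 LKO (edgeR adjusted p = 3.80e-08, SE 0.18), and it fell by 1.90 in SCAP LKO (adjusted p = 4.24e-05, SE 0.24) and by 2.70 in Double LKO (adjusted p = 1.06e-06, SE 0.26). Set directly against HDAC3 LKO it fell by 5.22 in Double LKO (adjusted p = 5.03e-10, SE 0.28), where 1.31% of all genes were called and 1.2% were called lower, and Double LKO against SCAP LKO gave -0.81 (adjusted p = 0.134, SE 0.32). The effect of losing HDAC3 thus differed between livers without and with SCAP by -3.32 on the log2 scale (adjusted p = 0.00032, SE 0.37 for the interaction term). DESeq2 gave -3.37 for the same term with an unadjusted p of 1.45e-20 and no adjusted p. In the table as deposited, edgeR called no gene for the interaction (0% of 12009), with 5% of all genes and 1 of 24 members (Ugt2b38) at an unadjusted p under 0.05. DESeq2 called 6 genes there, none of them a member, and 7 genes in the fit that holds the excess. The whole Ugt1a5 row did not show this: it was called higher in Double LKO (0.63, adjusted p = 0.00118), where its excess was lower. The lowest row was 90.3 to 99.8% of the Ugt1a5 row over the 17 libraries.

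In Double LKO the excess of Ugt1a5 rested on 10 to 84 counts a library, and in SCAP LKO on 22 to 48 counts. Leaving out any 1 library, or keeping only the GFP libraries of the same floxed line, left every Ugt1a5 call against GFP in place, with log2 values of 2.38 to 2.64 in HDAC3 LKO livers, -2.06 to -1.77 in SCAP LKO, with -3.13 to -2.52 in Double LKO over all settings. Without Double LKO library 2, where the summed hepatocyte markers were low, the Double LKO value was -2.597 (adjusted p = 5.37e-06).

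The promoter of Ugt1a5 is printed because its excess moved in opposite directions in the 2 single knockouts, beside those of Ugt1a9, Ugt1a6a and Ugt1a1 for comparison. The sequences are from RefSeq on build GRCm38.p6, 300 bases each, from 250 before to 50 after the annotated gene start, read 5′ to 3′ on the gene's strand. They are Ugt1a5 (chr1:88165762-88166061, plus strand), Ugt1a9 (chr1:88070529-88070828, plus strand), Ugt1a6a (chr1:88134559-88134858, plus strand) and Ugt1a1 (chr1:88211709-88212008, plus strand). Capitals mark matches to the motifs searched.
Ugt1a5: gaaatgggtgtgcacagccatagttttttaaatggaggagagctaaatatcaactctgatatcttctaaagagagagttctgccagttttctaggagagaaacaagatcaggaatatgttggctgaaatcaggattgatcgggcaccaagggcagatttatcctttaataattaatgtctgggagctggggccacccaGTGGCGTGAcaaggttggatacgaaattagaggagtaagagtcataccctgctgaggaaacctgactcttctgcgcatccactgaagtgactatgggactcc
Ugt1a9: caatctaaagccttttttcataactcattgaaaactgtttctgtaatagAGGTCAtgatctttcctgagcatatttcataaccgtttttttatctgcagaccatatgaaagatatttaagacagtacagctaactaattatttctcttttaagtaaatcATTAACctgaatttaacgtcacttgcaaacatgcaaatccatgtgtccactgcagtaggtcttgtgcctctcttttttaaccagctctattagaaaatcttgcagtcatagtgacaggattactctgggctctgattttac
Ugt1a6a: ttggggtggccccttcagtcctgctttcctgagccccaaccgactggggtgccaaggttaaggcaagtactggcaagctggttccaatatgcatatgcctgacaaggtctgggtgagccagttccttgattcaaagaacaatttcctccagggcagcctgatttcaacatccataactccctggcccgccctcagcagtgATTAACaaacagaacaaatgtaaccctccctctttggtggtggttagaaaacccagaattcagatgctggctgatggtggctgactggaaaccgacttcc
Ugt1a1: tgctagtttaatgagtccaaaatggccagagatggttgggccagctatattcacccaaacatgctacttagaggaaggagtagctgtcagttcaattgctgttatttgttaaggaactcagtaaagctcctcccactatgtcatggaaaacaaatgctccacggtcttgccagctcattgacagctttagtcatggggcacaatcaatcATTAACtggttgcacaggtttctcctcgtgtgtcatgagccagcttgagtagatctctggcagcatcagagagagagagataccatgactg

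Motifs were searched by letter on both strands in all 32851 promoters of this length, and 32 promoters of 30 of the 35 members were in the table. The capitals in Ugt1a5 are a sterol regulatory element, TCACNCCAC, on the reverse strand, starting at position -52 from the gene start. They overlap GCGTG, the core of the xenobiotic response element, at -49. TCACNCCAC stood in 1.24% of all promoters and in 2 of the 32 member promoters, those of Ugt1a5 and Sult6b1. Sult6b1 had 21 counts over all libraries and was not tested. The nuclear receptor half-site AGGTCA was in Ugt1a9 at -201 (16.3% of all promoters, 9 of 32 member promoters). The HNF1 half-site GTTAAT lay on the reverse strand in Ugt1a9 at -91, Ugt1a6a at -50 and Ugt1a1 at -41 (7.1% of all promoters, 11 of 32). The core GCGTG was in 32.4% of all promoters and 5 of 32 member promoters, and the E-box CACGTG in 7.15% and in none of the 32. Pairs of AGGTCA spaced by 1 base (0.0396% of all promoters) or by 4 bases (0.0152%) were in no member promoter. A match is a description of the sequence and not a bound site.

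Ugt1a9 and Ugt1a7c excess rose in both groups that lost HDAC3. Excess of Ugt1a9 was 257, 224, 251 and 269.9 CPM in HDAC3 LKO, 104.6, 139, 99.8 and 120.1 in SCAP LKO, with 263, 499.7 and 436 in Double LKO, against 37.8 to 73.1 (median 48.7) in GFP. Each of the 11 knockout libraries lay above all GFP libraries. It rose by 2.25 log2 units in HDAC3 LKO (edgeR adjusted p = 2.08e-07, SE 0.18), by 1.13 in SCAP LKO (adjusted p = 0.000765, SE 0.18) and by 2.92 in Double LKO (adjusted p = 3.15e-09, SE 0.19). The SCAP LKO call was lost with only the SCAP floxed GFP libraries as reference (0.93, adjusted p = 0.146). Ugt1a7c, whose excess was 4 to 107 counts a library, rose by 1.67 in HDAC3 LKO (adjusted p = 0.00135) and by 1.39 in Double LKO (adjusted p = 0.00675, and 0.057 without Double LKO library 4), and was at 1.28 in SCAP LKO (adjusted p = 0.0688).

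Ugt1a6a and Ugt1a6b, whose product conjugates small flat phenols, moved down where the shared reads moved up. Ugt1a6b excess was 30.5, 17.7, 21.9 and 22.2 CPM in HDAC3 LKO, 71.2, 62.2, 69.9 and 52.04 in SCAP LKO, with 17.8, 17.6 and 20.6 in Double LKO, against 56.4 to 68.6 (median 62.2) in GFP. Ugt1a6a excess was 40.4 to 59.6 CPM in HDAC3 LKO livers, 71.8 to 88.0 in SCAP LKO, with 33.0 to 37.3 in Double LKO, against 63.2 to 91.5 in GFP. For both, all HDAC3 LKO and Double LKO libraries lay below all GFP libraries and SCAP LKO overlapped them. The first exons of the pair are closely similar, so reads may be split between them in ways the table does not show. Ugt1a6b fell in HDAC3 LKO (log2 fold change -1.43, edgeR adjusted p = 9.38e-07, SE 0.13) and in Double LKO (-1.73, adjusted p = 1.14e-07, SE 0.14), and Ugt1a6a fell by 0.57 in HDAC3 LKO (adjusted p = 0.00231, SE 0.11) and by 1.11 in Double LKO (adjusted p = 7.93e-06, SE 0.13). With only HDAC3 floxed GFP libraries as reference, Ugt1a6a in HDAC3 LKO was at -0.46 (adjusted p = 0.0767).

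The Ugt1a1 excess was 497, 478, 542 and 491.5 CPM in HDAC3 LKO, 347.5, 326, 357.5 and 271 in SCAP LKO, with 386, 576.5 and 529.9 in Double LKO, against 321 to 391 (median 358) in GFP. HDAC3 LKO libraries lay above all GFP libraries, and Double LKO library 2 lay inside the GFP range. It rose by 0.48 log2 units in HDAC3 LKO (edgeR adjusted p = 0.00577, SE 0.11) and by 0.47 in Double LKO (adjusted p = 0.0115, SE 0.12), and was at -0.15 in SCAP LKO (adjusted p = 0.704). The Double LKO call was lost without library 3 (0.35, adjusted p = 0.085) or library 4 (0.42, adjusted p = 0.0629), and without library 2 the value was 0.62 (adjusted p = 0.00049). With only GFP libraries of the same floxed line, both calls were lost (0.55 in HDAC3 LKO, adjusted p = 0.0727, and 0.51 in Double LKO, adjusted p = 0.0986).

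As shares of the summed excess, which do not depend on how much of the locus was transcribed, Ugt1a1 held 52.4 ± 3.0% in HDAC3 LKO, 54.03 ± 3.0% in SCAP LKO, with 52.2 ± 2.2% in Double LKO, against 62.4 ± 1.6% in GFP (SD; n = 4, 4, 3 and 6). Ugt1a9 held 26.1 ± 0.66% in HDAC3 LKO, 19.4 ± 3.5% in SCAP LKO, with 41.1 ± 3.5% in Double LKO, against 9.15 ± 2.3% in GFP. Ugt1a5 held 13.2 ± 2.1% in HDAC3 LKO, 1.006 ± 0.15% in SCAP LKO, with 0.324 ± 0.092% in Double LKO, against 3.85 ± 0.98% in GFP. Ugt1a6a and Ugt1a6b held 5.26 ± 0.67% and 2.39 ± 0.48% in HDAC3 LKO, 13.7 ± 0.23% and 10.6 ± 0.83% in SCAP LKO, with 3.74 ± 0.92% and 2.02 ± 0.49% in Double LKO, against 13.0 ± 1.8% and 10.8 ± 0.74% in GFP. First exons differ in length, so shares are not compared between genes. Shares of 1 total are also tied to each other, so a lower share does not mean a lower excess. The Ugt1a1 share was lower in HDAC3 LKO than in GFP although its excess was higher by 0.48 log2 units. The summed excess was 66.4 to 73.2% of the shared reads in the 17 libraries.

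**Figure D2:**
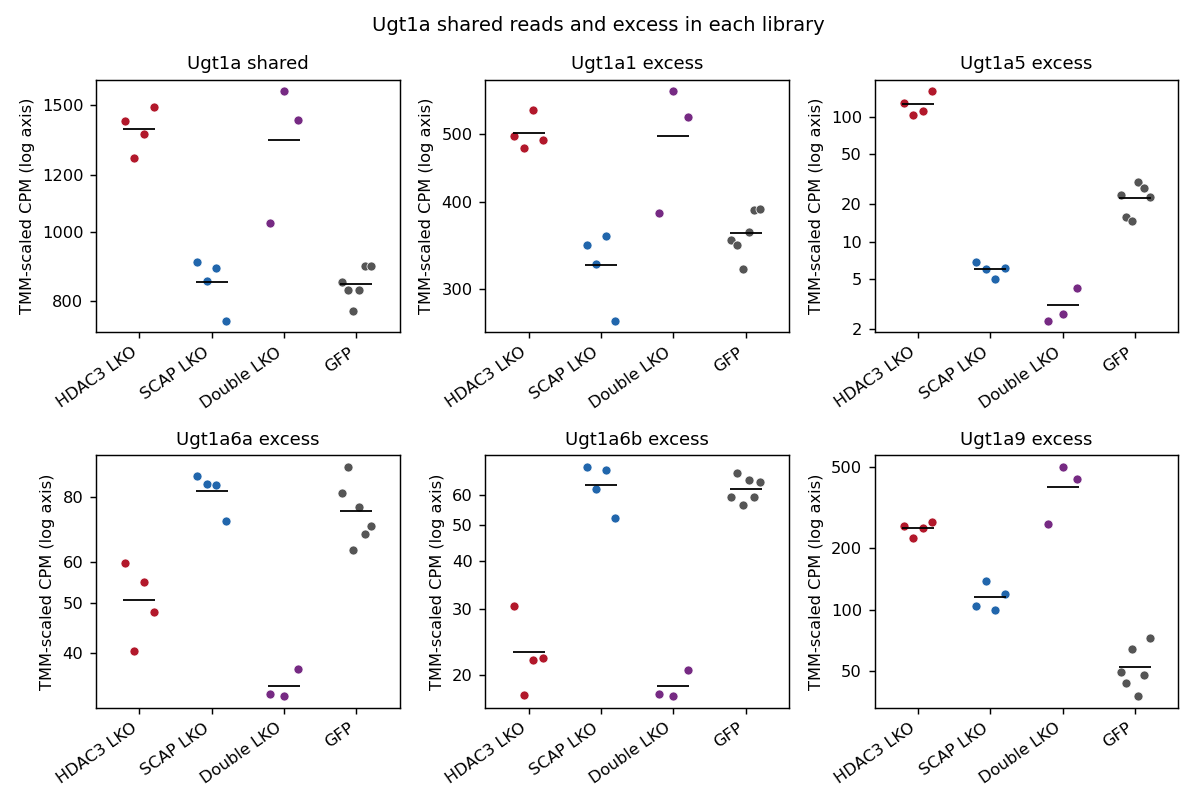
TMM-scaled CPM (log axis) of the shared Ugt1a reads and of the excess of 5 Ugt1a genes, with 1 point per library and a line at the group mean, for HDAC3 LKO (4), SCAP LKO (4), Double LKO (3) and GFP (6). Ugt1a5 is at 104.5 to 161 in HDAC3 LKO livers, 5.04 to 6.83 in SCAP LKO, with 2.32 to 4.27 in Double LKO, with GFP at 14.7 to 30.2.

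**Figure D3:**
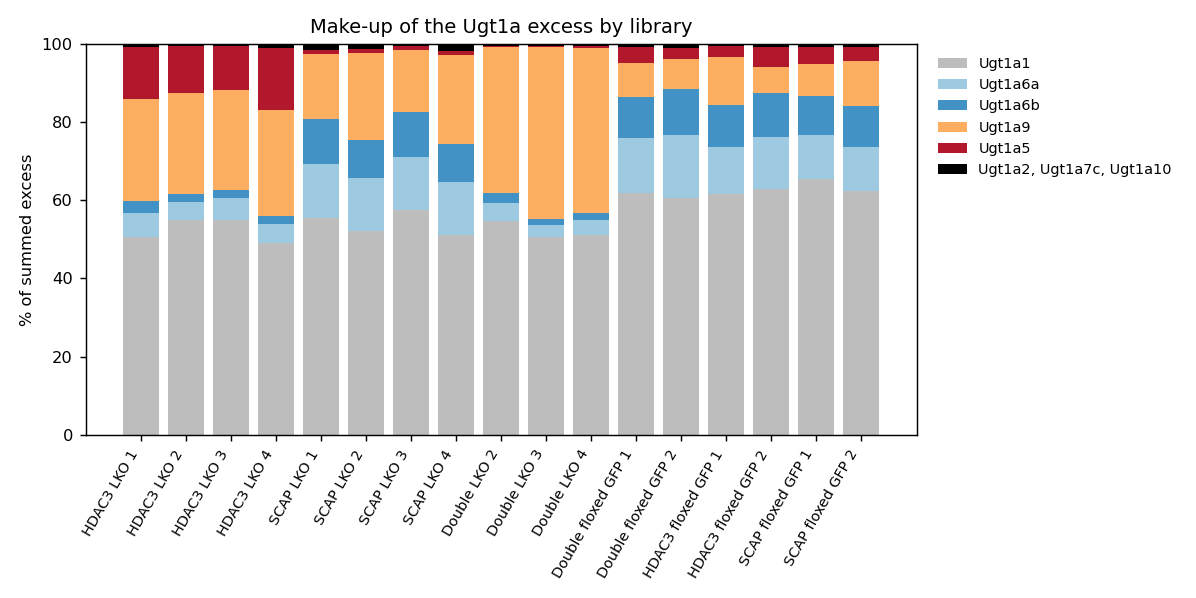
Percent of the summed Ugt1a excess that each gene holds, with 1 stacked bar per library, grouped as HDAC3 LKO, SCAP LKO, Double LKO and GFP. Ugt1a9 holds 25.4 to 26.9% in HDAC3 LKO livers, 16.1 to 22.7% in SCAP LKO, with 37.3 to 44.0% in Double LKO, against 6.54 to 12.3% in GFP, and Ugt1a5 is a visible band mainly in HDAC3 LKO (11.3 to 16.1%).

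The Ugt2b genes, which conjugate mainly steroids and other lipophilic compounds, form a cluster of close relatives on chromosome 5 and can also share reads. They did not move as a block: their summed count was at 0.05 on the log2 scale in HDAC3 LKO (edgeR adjusted p = 0.847, SE 0.14), 0.23 in SCAP LKO (adjusted p = 0.599, SE 0.14) and 0.11 in Double LKO (adjusted p = 0.72, SE 0.15). Ugt2b34 was the member called in all 3 knockouts. It had 984.5, 811, 1241 and 1015 CPM in HDAC3 LKO, 1032, 994, 1156 and 1065 in SCAP LKO, with 1105, 1354 and 1332 in Double LKO, against 669 to 843 (median 745) in GFP. SCAP LKO and Double LKO libraries lay above all GFP libraries, and 1 HDAC3 LKO library lay inside the GFP range. Ugt2b34 rose by 0.44 log2 units in HDAC3 LKO (adjusted p = 0.0108, SE 0.11), by 0.51 in SCAP LKO (adjusted p = 0.0201, SE 0.11) and by 0.76 in Double LKO (adjusted p = 0.000215, SE 0.12). Its HDAC3 LKO call was lost without HDAC3 LKO library 3 (0.33, adjusted p = 0.0592), and its SCAP LKO call without HDAC3 floxed GFP library 2 or without SCAP LKO library 1, 3 or 4 (0.47 to 0.52, adjusted p = 0.0577 to 0.0995).

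Ugt2b37 and Ugt2b38 had the highest fold changes of the members in HDAC3 LKO, and in both HDAC3 LKO library 3 was far above the other 3. Ugt2b37 had 18.2, 13.5, 68.4 and 21.2 CPM in HDAC3 LKO, 3.87, 4.63, 4.75 and 6.87 in SCAP LKO, with 10.1, 11.0 and 22.1 in Double LKO, against 2.34 to 6.14 (median 3.55) in GFP. HDAC3 LKO and Double LKO libraries lay above all GFP libraries. It rose by 2.85 log2 units in HDAC3 LKO (edgeR adjusted p = 8.23e-05, SE 0.39; 2.10 without library 3, adjusted p = 0.000101) and by 1.88 in Double LKO (adjusted p = 0.0051, SE 0.42; 1.38 without library 4, adjusted p = 0.0933), and was at 0.34 in SCAP LKO (adjusted p = 0.881). Ugt2b38 ranged from 18.8 to 103.9 CPM in HDAC3 LKO livers, 12.2 to 24.4 in SCAP LKO, with 1.38 to 26.8 in Double LKO, against 5.79 to 22.8 in GFP. It rose by 1.89 in HDAC3 LKO (adjusted p = 0.0143, SE 0.49), was at 1.12 without HDAC3 LKO library 3 (adjusted p = 0.126), and was at 0.35 in Double LKO (adjusted p = 0.751).

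The promoters of this pair are printed to show how alike they are: aligned over 314 positions they were 86.9% identical. They are from RefSeq on GRCm38.p6, Ugt2b37 at chr5:87254739-87255038 and Ugt2b38 at chr5:87424154-87424453, both on the minus strand, 5′ to 3′ on that strand, with AGGTCA in capitals (at -39 and at -25 from the gene start).
Ugt2b37: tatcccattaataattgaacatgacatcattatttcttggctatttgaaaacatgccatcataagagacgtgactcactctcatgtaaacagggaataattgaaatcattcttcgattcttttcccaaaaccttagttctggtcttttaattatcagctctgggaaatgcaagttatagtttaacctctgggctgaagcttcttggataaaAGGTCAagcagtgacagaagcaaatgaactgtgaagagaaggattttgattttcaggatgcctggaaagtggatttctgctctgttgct
Ugt2b38: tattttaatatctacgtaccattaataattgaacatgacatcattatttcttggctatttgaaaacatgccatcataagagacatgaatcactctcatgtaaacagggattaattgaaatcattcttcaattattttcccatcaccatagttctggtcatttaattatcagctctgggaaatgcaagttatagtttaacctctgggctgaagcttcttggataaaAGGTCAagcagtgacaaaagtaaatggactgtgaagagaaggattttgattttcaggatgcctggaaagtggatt

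AGGTCA also stood close to the start of Ugt2b5 (-22) and Ugt2b36 (-25), which were not called, and the Ugt2b38 and Ugt2b5 promoters were 84.2% identical. Against these, the promoters of Ugt2b1 and Ugt2b34 were 44.7 to 49.2% identical to every other member of the subfamily in the table.

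Outside Ugt1a, Ugt2b1 was the Ugt gene called lower in Double LKO. Its level was 633, 607, 862 and 712 CPM in HDAC3 LKO, 642, 569.6, 728 and 505 in SCAP LKO, with 216, 445 and 517 in Double LKO, against 735 to 984 (median 828) in GFP. Double LKO and SCAP LKO libraries lay below all GFP libraries, and HDAC3 LKO overlapped them. It fell by 1.09 log2 units in Double LKO (edgeR adjusted p = 0.00123, SE 0.21; -0.80 without library 2, adjusted p = 0.00157), and was at -0.46 in SCAP LKO (adjusted p = 0.335, SE 0.18) and -0.25 in HDAC3 LKO (adjusted p = 0.394, SE 0.18). Double LKO against HDAC3 LKO gave -0.84 (adjusted p = 0.0659, SE 0.22), the lowest p of the 24 members in that comparison, where edgeR called none and 5 of 24 had an unadjusted p under 0.05, as did 10.9% of all genes. DESeq2 called 1 member there, and so did edgeR without Double LKO library 4 or without the filter on low counts.

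Of the members that no comparison with GFP called, Ugt2b5, Ugt2b36 and Ugt2b35 had the highest CPM, an order that takes no account of transcript length. Ugt2b5 had 1560, 1067, 1529 and 1348 CPM in HDAC3 LKO, 1835, 1815, 1834 and 1553 in SCAP LKO, with 1000.3, 1572 and 1712 in Double LKO, against 1098 to 2005 (median 1370) in GFP. Ugt2b36 had 683 to 925 CPM in HDAC3 LKO livers, 945 to 1039 in SCAP LKO, with 647.5 to 985 in Double LKO, against 696 to 1096 in GFP. Ugt2b35 had 576 to 819.6 CPM in HDAC3 LKO livers, 841 to 976 in SCAP LKO, with 816 to 1083 in Double LKO, against 473 to 794 in GFP. The knockout libraries overlapped the GFP libraries for the first 2, while SCAP LKO and Double LKO libraries lay above all GFP libraries for Ugt2b35 (0.42 on the log2 scale in SCAP LKO, edgeR adjusted p = 0.228, SE 0.14, and 0.47 in Double LKO, adjusted p = 0.0513, SE 0.15). All 3 differed between the GFP libraries by floxed line at an unadjusted p under 0.05 and not after adjustment: Ugt2b5 averaged 1161 CPM in HDAC3 floxed, 1369.7 in SCAP floxed and 1824 in HDAC3/SCAP floxed GFP livers (adjusted p = 0.698). Between the lines of GFP livers 0.142% of all genes and no member was called.

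Of the remaining Ugt genes, Ugt3a1, whose human counterpart uses UDP-N-acetylglucosamine as the donor, ranged from 60.998 to 98.9 CPM in HDAC3 LKO livers, 35.002 to 54.2 in SCAP LKO, with 45.8 to 104.3 in Double LKO, against 42.2 to 51.6 in GFP. HDAC3 LKO libraries lay above all GFP libraries, and Double LKO library 2 lay among them. It rose by 0.84 log2 units in HDAC3 LKO (edgeR adjusted p = 0.00247, SE 0.17) and by 0.76 in Double LKO (adjusted p = 0.00885, SE 0.18). Without Double LKO library 3, Ugt3a1 was at 0.50 in Double LKO (adjusted p = 0.0975), and without library 2 it was at 1.005 (adjusted p = 0.00013). Its relative Ugt3a2 was at -0.38 in HDAC3 LKO (adjusted p = 0.0765), 0.09 in SCAP LKO (adjusted p = 0.891) and -0.39 in Double LKO (adjusted p = 0.102). Ugt2a3 was at -0.32 in HDAC3 LKO (adjusted p = 0.276), at 0.25 in SCAP LKO (adjusted p = 0.705) and at -0.39 in Double LKO (adjusted p = 0.227). Ugt2a1 and Ugt2a2 had 46 and 47 counts over all libraries and were not tested.

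Among the sulfotransferases, Sult1a1, the main phenol sulfotransferase of liver, rose wherever HDAC3 was lost. It had 373, 518, 354 and 369 CPM in HDAC3 LKO, 196, 124, 165 and 158 in SCAP LKO, with 351, 362.5 and 288 in Double LKO, against 137 to 222 (median 196) in GFP. All HDAC3 LKO and Double LKO libraries lay above all GFP libraries, and SCAP LKO overlapped them. The change was 1.12 on the log2 scale in HDAC3 LKO (edgeR adjusted p = 5.98e-05, SE 0.15) and 0.85 in Double LKO (adjusted p = 0.00142, SE 0.16), with -0.20 in SCAP LKO (adjusted p = 0.712, SE 0.15).

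Sult5a1 ranged from 20.3 to 37.8 CPM in HDAC3 LKO livers, 5.99 to 10.9 in SCAP LKO, with 4.83 to 31.9 in Double LKO, against 5.79 to 17.9 in GFP. It rose by 1.32 log2 units in HDAC3 LKO (edgeR adjusted p = 0.0231, SE 0.37), a call lost without HDAC3 LKO library 2 (adjusted p = 0.0514) or 3 (1.12, adjusted p = 0.0849). The HDAC3 floxed GFP livers stood above the rest of GFP, with a mean of 16.6 CPM against 6.62 in SCAP floxed and 5.80 in HDAC3/SCAP floxed, and against HDAC3 floxed GFP alone the change was 0.66 (adjusted p = 0.433). The part of the floxed line in the result was not tested. In Double LKO, Sult5a1 was at 1.16 (adjusted p = 0.0553).

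Sult1d1, which sulfates catecholamines in mice, ranged from 89.8 to 105.9 CPM in HDAC3 LKO livers, 65.6 to 94.7 in SCAP LKO, with 40.01 to 86.4 in Double LKO, against 74.5 to 185 in GFP. It fell by 0.77 log2 units in Double LKO (edgeR adjusted p = 0.0484, SE 0.25), with overlapping groups. The call was lost without Double LKO library 2 (-0.53, adjusted p = 0.186) or 4, without HDAC3 floxed GFP library 1 (-0.55, adjusted p = 0.0875) or 2, and without SCAP floxed GFP library 1, with adjusted p of 0.0696 to 0.186 over these. Against HDAC3/SCAP floxed GFP alone it was -0.25 (adjusted p = 0.627). Sult1c2 ranged from 1.83 to 4.93 CPM in HDAC3 LKO livers, 2.55 to 6.05 in SCAP LKO, with 1.15 to 2.03 in Double LKO, against 2.99 to 5.96 in GFP, and it fell by 1.27 in Double LKO (adjusted p = 0.0167, SE 0.34; 0.0786 without library 4). Sult1b1, which sulfates thyroid hormone, was at 0.14 in HDAC3 LKO (adjusted p = 0.767), at 0.00 in SCAP LKO (adjusted p = 1) and at 0.32 in Double LKO (adjusted p = 0.5). Sult2a7 of the hydroxysteroid sulfotransferases was at -0.86 in HDAC3 LKO (adjusted p = 0.166), at -0.53 in SCAP LKO (adjusted p = 0.7) and at -1.22 in Double LKO (adjusted p = 0.0571).

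The remaining 9 sulfotransferases with a count (Sult1e1, Sult2a2, Sult2a4, Sult2a5, Sult2a6, Sult2b1, Sult3a1, Sult4a1 and Sult6b1) had 1 to 21 counts over all 17 libraries. Sult1c1, Sult2a1 and Sult2a3 had none in 134055274 counts, which allows a level of up to 0.0224 CPM over all libraries. Sult2a and Sult3a genes are known as more abundant in female than in male mouse liver.

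**Figure D4:**
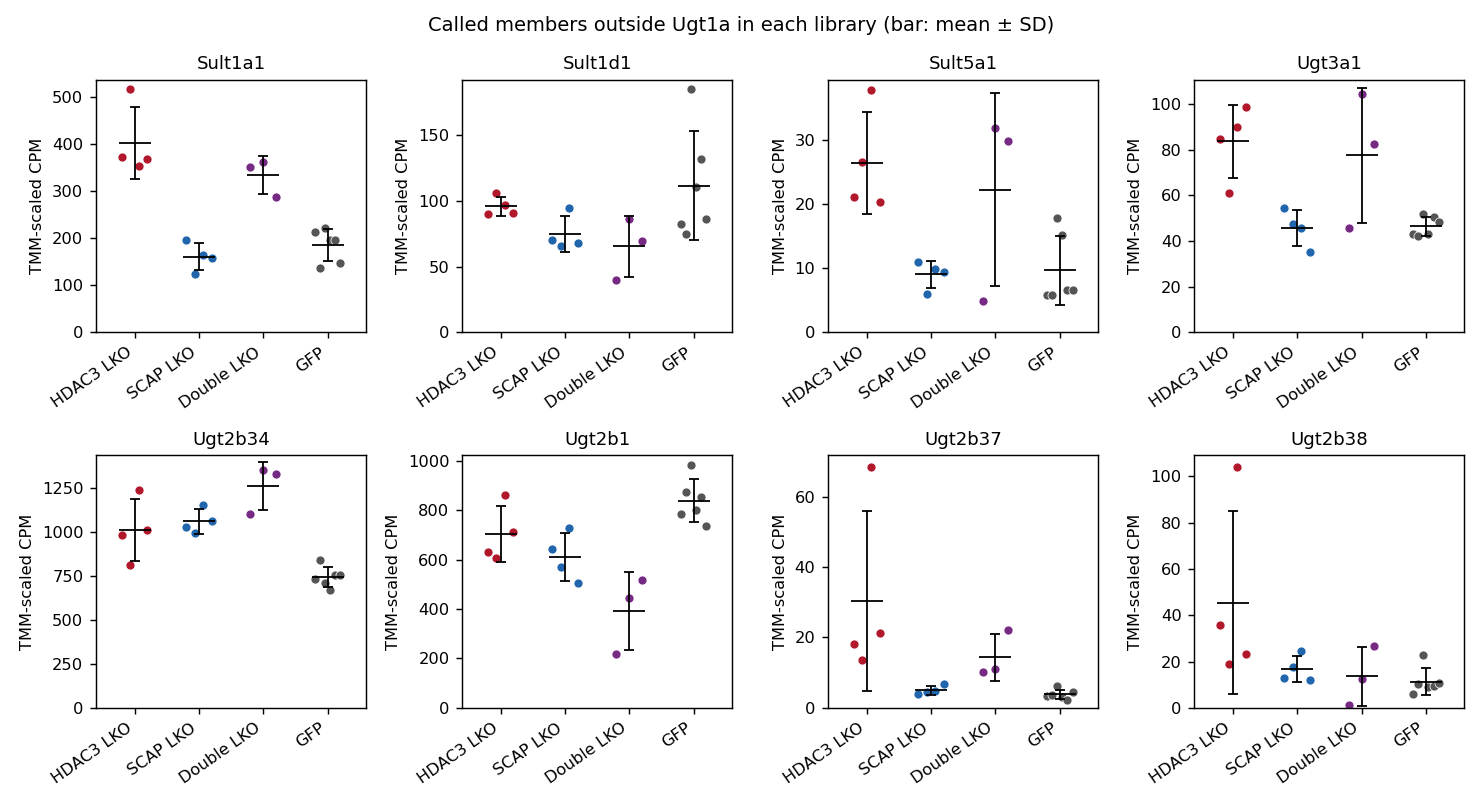
TMM-scaled CPM of 8 called members outside Ugt1a, with 1 point per library and the mean ± SD, in HDAC3 LKO (4), SCAP LKO (4), Double LKO (3) and GFP (6). Sult1a1 is at 288 to 518 in the 7 libraries without HDAC3, above GFP (137 to 222), while 1 HDAC3 LKO library lies far above its group in Ugt2b37 (68.4) and in Ugt2b38 (103.9).

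Set directly against SCAP LKO, Double LKO had 10 members higher and none lower (the 8 Ugt1a genes, Sult1a1 and Ugt3a1), where 4.98% of all genes were called higher and 3.01% lower, 7.99% in all. HDAC3 LKO against SCAP LKO had 12 higher and 1 lower, where 8.52% were called higher and 6.15% lower, 14.7% in all. The 1 lower was Ugt3a2 (-0.48). With Ugt1a counted as 1 locus, 3 members were called in Double LKO and 6 in HDAC3 LKO against SCAP LKO. Without Double LKO library 3, Ugt1a6a and Ugt1a6b were no longer called against SCAP LKO (adjusted p = 0.0566 and 0.0535), and Ugt3a1 was not called without Double LKO library 3 or 4 or SCAP LKO library 4 (adjusted p = 0.0682 to 0.136).

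The authors' deposited table carries its own fold changes and false discovery rates (FDR). In the authors' deposited table, at an FDR under 0.05, 14 of the 35 members were higher and 1 lower (Ugt3a2, -0.41) in HDAC3 LKO, 1 higher (Ugt2b34, 0.43) and 1 lower (Ugt2b1, -0.55, FDR 0.0498) in SCAP LKO, and 9 higher and 2 lower (Ugt2b1 and Sult1c2) in Double LKO. Of all 22869 genes, the authors' deposited table has 3.31% higher and 2.28% lower in HDAC3 LKO, 0.157% and 0.853% in SCAP LKO, with 1.96% and 0.984% in Double LKO. The Ugt1a rows share reads, and outside Ugt1a the authors' deposited table has 6 members higher in HDAC3 LKO, 1 in SCAP LKO, with 3 in Double LKO.

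Genes that feed, undo or export the conjugates changed in part. The counts of these lists stand beside the share of all tested genes called, which was 7.88% higher and 6% lower in HDAC3 LKO, 0.258% and 0.933% in SCAP LKO, with 7.56% and 6.34% in Double LKO. Of 8 genes for supply and transport of UDP-glucuronate, 1 rose in HDAC3 LKO, the nucleotide sugar transporter Slc35d2 (0.50 on the log2 scale, edgeR adjusted p = 0.00194), and 2 rose in Double LKO, Slc35d2 (0.65, adjusted p = 0.000264) and Ugdh (0.58, adjusted p = 0.0381), the enzyme that makes UDP-glucuronate. Of 8 tested genes for supply and transport of sulfate and PAPS, 2 rose and 1 fell in HDAC3 LKO: Papss2, a PAPS synthase, rose by 1.08 (adjusted p = 0.000723), Suox, the sulfite oxidase, by 0.59 (adjusted p = 0.00222), and the sulfate carrier Slc26a1 fell by 0.39 (adjusted p = 0.0328). In Double LKO only Slc26a1 of this list was called (-0.74, adjusted p = 0.000718). Of 5 tested genes of deconjugation, Arsa, a lysosomal sulfatase, rose by 1.08 in HDAC3 LKO (adjusted p = 0.000292) and 1.15 in Double LKO (adjusted p = 0.000253), and Abhd10 fell by 0.63 in HDAC3 LKO (adjusted p = 0.0137) and 0.51 in Double LKO (adjusted p = 0.0473). The median log2 fold change of these 3 lists was 0.16, 0.06 and -0.18 in HDAC3 LKO and 0.07, -0.02 and -0.19 in Double LKO, against -0.02 and -0.01 over all genes. None of the 3 lists had a called gene in SCAP LKO.

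Of 8 transporters of conjugates, 2 rose and 3 fell in HDAC3 LKO, and 2 rose and 4 fell in Double LKO. For these and the next 2 lists, the share of all tested genes was 7.88% higher and 6% lower in HDAC3 LKO. It was 0.258% and 0.933% in SCAP LKO, with 7.56% and 6.34% in Double LKO. Abcc4, an exporter of the sinusoidal membrane, rose by 1.79 log2 units in HDAC3 LKO (edgeR adjusted p = 0.00015, SE 0.26) and 1.25 in Double LKO (adjusted p = 0.00593), and Abcc3 of the same membrane by 0.49 in HDAC3 LKO (adjusted p = 0.0204) and 0.69 in Double LKO (adjusted p = 0.00342). Abcc2, which exports glucuronides into bile, fell by 0.44 in HDAC3 LKO (adjusted p = 0.00519) and by 0.44 in Double LKO (adjusted p = 0.00962), and the uptake carrier Slco1a1 by 1.05 in HDAC3 LKO (adjusted p = 0.00188) and 1.02 in Double LKO (adjusted p = 0.00495). Of 22 tested regulators, 2 rose (Stat5b, 0.65, adjusted p = 7.05e-05; Nr1i2, the pregnane X receptor, 0.34, adjusted p = 0.0192) and 1 fell (Nr1h3, -0.26, adjusted p = 0.0369) in HDAC3 LKO. Of 9 target genes of the xenobiotic receptors, 4 rose in HDAC3 LKO and 3 in Double LKO, among them Cyp3a11 (0.95 in HDAC3 LKO, adjusted p = 0.000672, and 1.29 in Double LKO, adjusted p = 5.01e-05) and Nqo1 (0.73 in HDAC3 LKO, adjusted p = 0.0185, and 1.49 in Double LKO, adjusted p = 5.01e-05). Their median was 0.46 in HDAC3 LKO and 0.67 in Double LKO. In SCAP LKO 1 of them rose, Cyp2c55 (0.96, adjusted p = 0.025).

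Several sulfotransferases and transporters are sex-biased in mouse liver, so lists of sex-biased genes were read beside them. Over all tested genes, 7.88% were called higher and 6% lower in HDAC3 LKO, with 7.56% and 6.34% in Double LKO. Of 11 tested female-biased genes, 7 rose and none fell in HDAC3 LKO (median 1.007 on the log2 scale) and 5 rose and none fell in Double LKO (median 1.12). Of 13 male-biased genes, 2 rose and 4 fell in HDAC3 LKO (median -0.46) and 1 rose and 6 fell in Double LKO (median -0.56). Cyp2c40 rose by 2.87 (edgeR adjusted p = 4.29e-06) and Hsd3b5 fell by 2.68 (adjusted p = 0.00317) in HDAC3 LKO. In Double LKO, Hsd3b5 was at -2.63 (edgeR adjusted p = 0.00706), while the female-biased Cyp2c40 was at -0.29 (adjusted p = 0.717). For Cyp2c40, Double LKO set directly against HDAC3 LKO gave -3.17 (adjusted p = 1.83e-05). In Double LKO 2 of 4 tested Y-linked genes were also lower (Uty, -0.40, and Kdm5d, -0.38). Of 5 endothelial, 6 macrophage and 3 cholangiocyte markers tested, none was called in any knockout against GFP, and 1 of 6 stellate markers (Rgs5, 0.84, adjusted p = 0.00325) was called in HDAC3 LKO. Of 2 tested markers of intestine or pancreas, Fabp2 rose (0.65, adjusted p = 0.0091) and Cela1 fell (-1.18, adjusted p = 0.0031) in HDAC3 LKO, and Cela1 fell in Double LKO (-0.76, adjusted p = 0.049). Of 6 hepatocyte markers, Cyp2e1 rose in Double LKO (0.55, adjusted p = 0.0258). The part of these markers in the results was not tested. Summed macrophage markers were at 195 to 262 CPM in HDAC3 LKO livers, 203 to 303 in SCAP LKO, with 197 to 230 in Double LKO, against 151 to 309.8 in GFP, and the 4 kidney markers at no more than 0.303 CPM in any library.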

How the data were processed

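RNA was sequenced from 17 liver libraries. The authors deposited whole-number read counts per RefSeq transcript, not normalized, as the values show. The submitters' processing notes name Bowtie, HOMER, edgeR and build mm9 without roles or versions. Their log2 fold changes and FDR values (adjusted p-values) stand in the same table, per the file headers. A further 17 columns of per-sample values and the deposited peak lists were not used here, the peaks because no gene coordinates of their build were given.

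Of 28644 transcript rows, the 22869 the authors marked as best for a gene were tested with edgeR 4.0.16 (R 4.3.3): TMM, filterByExpr, quasi-likelihood F-tests on 1 fit of 4 groups, Benjamini-Hochberg adjustment over all 12009 genes tested. The SE is the log2 fold change over the square root of F. CPM are TMM-scaled; transcript lengths were not used, so levels are not compared between genes. The procedure was tested on simulated counts. The Ugt1a excess and the shared reads replaced the Ugt1a rows in the same kind of fit. DESeq2 1.42.0, other scalings, no filter, other transcript rows, other controls and leaving out each library were tried.

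Members and lists were chosen with earlier results of these data known. Values of each library are given for up to 12 members called against GFP, by lowest p with log2 CPM of at least 1, and for the 3 of highest CPM that were not called (CPM per length had been intended). Ugt1a rows that repeat the same reads are given by range, and other members by range. Sequences are from RefSeq, GRCm38.p6; motifs were matched by letter.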

Additional observations from a re-analysis of the deposited data

Results flagged for a closer look

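Of 90 sets of values of 1 member or 1 Ugt1a excess in 1 group, 10 had a library far from the others, where chance marks about 1 set in 20. The groups examined were HDAC3 LKO, SCAP LKO and GFP, and Double LKO was not examined in this way. The sets share libraries and, within Ugt1a, reads. In HDAC3 LKO, Sult1a1 was at 517.8 CPM in library 2 (353.8 to 373.4 in the other 3), Ugt3a2 at 255.0 in the same library (356.7 to 361.1), Sult1b1 at 27.38 in library 3 (31.43 to 32.14) and Ugt2b37 at 68.44 in library 3 (13.45 to 21.16). In SCAP LKO, library 4 was low for Ugt1a9 (865.9, others 982.9 to 1004), Ugt2b36 (945.3, others 1025 to 1039), Ugt2b5 (1553, others 1815 to 1835) and Ugt3a2 (402.7, others 476.7 to 490.2), and library 3 was high for Sult1d1 (94.7, others 65.56 to 70.46). Among the GFP libraries, Ugt2b38 was at 22.8 CPM in HDAC3 floxed GFP library 1 (5.787 to 10.61 in the other 5).

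The Ugt1a5 excess differed between contexts: its change with loss of HDAC3 was lower by 3.32 on the log2 scale without SCAP than with it (-3.322, edgeR adjusted p = 0.00032 for the interaction term). The value kept its sign and passed in all 21 alternatives that gave an adjusted p, between -3.75 and -3.17.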

How the results depend on the processing

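Of the log2 fold changes of called members under the alternatives, 757 stayed called and 53 did not. Of those of the Ugt1a excess, 380 stayed called and 10 did not, and none of either kind changed sign. The 8 Ugt1a rows share reads and were counted separately. They hold most of the member values, while most of the member calls lost were outside Ugt1a. The member calls lost were mostly of Sult1d1, Sult5a1, Ugt2b38, Ugt2b34, Ugt3a1 and Ugt3a2, and most were lost on leaving out 1 library. Some of the others were lost with only GFP libraries of the same floxed line, which leaves fewer samples. Counts of members called moved as follows. With the Ugt1a rows as 1 locus, 7 were called in HDAC3 LKO against GFP, 9 in Double LKO against GFP, 3 in Double LKO against SCAP LKO and 6 in HDAC3 LKO against SCAP LKO. Counting 8 rows once removes 7 calls in each by construction, and in Double LKO against GFP Ugt2b35 was called in addition (adjusted p = 0.0493, against 0.0513 as deposited). In Double LKO against HDAC3 LKO, 1 was called with no filter on low counts and 1 with DESeq2. In SCAP LKO against GFP, 0 were called with controls of the same floxed line (3 at an unadjusted p under 0.05), 2 with the replicate block and 2 in the same libraries without the block; the cause was not tested. Leaving out 1 library at a time gave, against GFP, 11 to 14 members in HDAC3 LKO, 0 to 1 in SCAP LKO, with 12 to 16 in Double LKO, and 0 to 1 in Double LKO against HDAC3 LKO, 8 to 12 in Double LKO against SCAP LKO, 11 to 12 in HDAC3 LKO against SCAP LKO and 0 for the interaction. The replicate block gave 11 members in HDAC3 LKO against GFP and 15 in HDAC3 LKO against SCAP LKO. Same-numbered libraries correlated at -0.082 to 0.112, and 2 of 4 in each knockout correlated best with their own number, so the numbers were not taken to pair the samples. No paired analysis was possible for Double LKO because its columns carry no number tied to a sample. The planned windows of peaks around members were not run. The Ugt1a5 excess rested on as few as 10 counts in a library and the Ugt1a7c excess on as few as 4, which limits their precision.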
